A study of Mus musculus with 42 samples.

Results

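The 31 genes described here encode the enzymes and transporters of glycolysis and of the pentose phosphate pathway, together with Hif1a, the prolyl hydroxylases Egln1 and Egln3 and the pyruvate dehydrogenase kinase Pdk1. They were taken by gene symbol from 21988 protein-coding genes of the mouse build mm10. Bone marrow of male C57Bl6/J mice aged 6 to 12 weeks, either WT or Nur77-KO, was grown for 7 days in medium with L929-conditioned supernatant into bone marrow-derived macrophages, which were then left untreated (0 h) or given 100 ng/ml lipopolysaccharide (LPS), a component of the bacterial cell wall, for 1 or 18 h. Chromatin immunoprecipitation with sequencing was run with an antibody against RNA polymerase II (Pol II) or against histone H3 acetylated at lysine 27 (H3K27ac), giving 3 libraries per antibody in each of 6 combinations of genotype and time, beside 1 input library without antibody per combination. Nr4a1, the gene of the nuclear receptor Nur77, had been deleted in the whole mouse by a Cre under the CMV promoter. The genotype label of the KO libraries names only Cre, while the methods describe KO mice that had lost the Cre transgene, and whether Cre bears on any genotype difference was not tested. The article calls its replicates biological, but the labels do not say whether the 3 libraries of a group came from separate mice, so p-values measure the spread between these libraries.

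Glycolysis takes glucose up through transporters such as Slc2a1, traps it by phosphorylation and breaks it down to pyruvate, which is exported as lactate or oxidised in mitochondria. The pentose phosphate pathway branches off at glucose 6-phosphate and yields NADPH and ribose. Macrophages given LPS are known for a rise in glycolytic flux and in lactate output. HIF-1alpha, encoded by Hif1a, is a transcription factor that binds many promoters of these genes and is marked for destruction by the enzymes encoded by Egln1 and Egln3 when oxygen is present.

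Pol II libraries held 21.7 to 36.1 M mapped tags and H3K27ac libraries 13.5 to 55.4 M, the KO ones being the deeper for H3K27ac. A value is given as normalized tags, the number of tags in the called regions of a gene per 10 M tags of the library. For Pol II the window ran from 500 bp before the gene to 500 bp past its end, and for H3K27ac it was the gene start plus and minus 2500 bp. The value therefore depends on how much of the window passed as a region, and 0 means that no region was called. Within groups the log2 values of genes correlated at 0.985 to 0.993 (Pearson, across genes, which are not independent replicates) for Pol II and at 0.910 to 0.994 for H3K27ac. Replicate 1 of the H3K27ac libraries of KO stood apart from replicates 2 and 3 at 1 and at 18 h, with 0.910 to 0.912 and 0.913 to 0.914. At 1 h it was replicate 1 that was like the WT libraries of that time (0.978 to 0.980, against 0.903 to 0.905 for replicates 2 and 3), and at 18 h replicates 2 and 3 were (0.979 to 0.982, against 0.906 to 0.908). Replicate 1 of KO at 18 h correlated at 0.904 to 0.905 with replicates 2 and 3 at 1 h. The labels do not say whether libraries were exchanged or made in batches, and neither was tested, so the H3K27ac values of KO at 1 and 18 h hold only for libraries labelled so. Counts of KO against 0 h and of KO against WT at 1 h are also given without replicate 1 and with it alone. All 8 macrophage markers had Pol II in each group, with summed values that did not overlap between genotypes after LPS: 33667 to 35670.1 in WT against 24846 to 25537 in KO at 1 h, and 46312 to 48879 against 39414 to 42595 at 18 h. In contrast, 4 of the 5 neutrophil markers (S100a9, Ly6g, Mpo and Elane) were at 0 in all 18 Pol II libraries and fibroblast and NK lists stayed at or near 0. The summed neutrophil list was higher in KO than in WT at 0 h, with 39.3 to 45.3 against 15.4 to 16.6 for Pol II and 162 to 179 against 72.4 to 86.4 for H3K27ac, and at 1 h, with 8.62 to 17.0 against 0 and 65.0 to 113 against 20.3 to 29.4. T cell sums were 137 to 238 for Pol II, with Cd3e and Cd8a at 0, and B cell sums reached 363 for H3K27ac. Whether the amount of macrophages or of other cell types bears on the results was not tested. Over Nr4a1 itself untreated WT libraries had Pol II of 189, 188 and 208 and untreated KO libraries 87.8, 76.1 and 70.2. At 1 h the order was the other way round without overlap, 25.5, 23.0 and 30.4 (WT) against 33.5, 39.0 and 36.6 (KO), and at 18 h KO was at 0 in all 3 libraries and WT at up to 7.46. H3K27ac at its start overlapped between genotypes at 0 h (means 76.1 in WT, 73.5 in KO). At 18 h 1 WT library was at 0 too, so Pol II over Nr4a1 separated the genotypes in the direction of the labels at 0 h only, and Pol II left on the gene does not by itself show whether the deletion is present. Fewer cells with an occupied gene and less polymerase per cell cannot be told apart in these bulk samples.

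Most promoters of the members held the core sequence that HIF-1 binds. The 250 bases before the start were read from RefSeq promoters on GRCm38.p6, which held 45 promoters for all 31 members, and were searched on both strands for the hypoxia core ACGTG or GCGTG, the AP-1 motif TGAGTCA or TGACTCA, the Nur77 motif NBRE (AAAGGTCA) and the NF-kB consensus. The palindrome CACGTG, which is also the E-box of other factors, counts as a hypoxia core on each strand. A hypoxia core was found in 37 of 45 member promoters (82.2%), against 38.6% of all 32807 promoters and 56.0% of the promoters of other genes with Pol II in all 18 libraries, whose median GC content of 59.6% was close to the 60.4% of the members. The AP-1 motif was found in 1 member promoter (Aldoa; 4.47% of all promoters), the NBRE in 1 (Eno1; 1.34%) and the NF-kB consensus in 2 (Pfkm and Pgk1; 7.25%). These shares describe letters in a window, and no test was run on them.

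Promoters of 5 members that the results below turn on are printed 5′ to 3′ on the strand of the gene, with hypoxia cores in capitals. Slc16a1 is shown because it differed most between KO and WT, and Pfkp because it rose most at 1 h in WT. Pdk1 and Pkm are shown because they fell most at 1 h in WT, and Ldha for its H3K27ac difference at 1 h. That Ldha difference was measured around the annotated gene start, 4622 bp from the transcript start with the most H3K27ac. Its window does not reach the promoter printed here. Where a gene had several promoters, the one nearest to the transcript start with the most H3K27ac was taken. The windows are chr3:104638414-104638663 (plus strand), chr7:46845554-46845803 (plus), chr13:6648772-6649021 (minus), chr2:71872974-71873223 (plus) and chr9:59656326-59656575 (plus).
Slc16a1: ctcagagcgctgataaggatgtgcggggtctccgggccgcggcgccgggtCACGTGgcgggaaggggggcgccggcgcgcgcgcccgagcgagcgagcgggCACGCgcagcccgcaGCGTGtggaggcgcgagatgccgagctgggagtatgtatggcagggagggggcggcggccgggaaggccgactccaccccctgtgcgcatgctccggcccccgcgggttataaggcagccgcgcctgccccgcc
Ldha: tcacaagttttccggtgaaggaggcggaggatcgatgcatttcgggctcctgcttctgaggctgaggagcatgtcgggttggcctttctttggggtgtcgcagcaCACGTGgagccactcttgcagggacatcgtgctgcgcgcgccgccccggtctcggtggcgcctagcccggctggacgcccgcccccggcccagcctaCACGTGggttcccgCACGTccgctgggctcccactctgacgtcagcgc
Pfkp: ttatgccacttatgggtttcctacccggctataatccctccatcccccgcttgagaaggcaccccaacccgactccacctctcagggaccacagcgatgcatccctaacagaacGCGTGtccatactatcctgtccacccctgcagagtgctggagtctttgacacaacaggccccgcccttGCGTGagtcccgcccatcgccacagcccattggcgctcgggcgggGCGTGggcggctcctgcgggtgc
Pdk1: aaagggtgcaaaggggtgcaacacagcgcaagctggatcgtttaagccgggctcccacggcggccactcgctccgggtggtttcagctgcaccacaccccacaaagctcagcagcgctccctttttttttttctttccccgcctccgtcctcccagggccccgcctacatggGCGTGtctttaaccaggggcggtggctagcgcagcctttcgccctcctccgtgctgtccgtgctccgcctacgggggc
Pkm: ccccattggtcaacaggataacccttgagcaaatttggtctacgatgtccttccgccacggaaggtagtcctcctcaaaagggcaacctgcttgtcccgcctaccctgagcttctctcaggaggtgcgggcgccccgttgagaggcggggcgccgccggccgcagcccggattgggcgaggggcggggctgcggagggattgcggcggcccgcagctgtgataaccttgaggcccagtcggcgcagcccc
The Slc16a1 promoter held 4 matches, a CACGTG among them, and none to the NBRE or the AP-1 motif. Ldha held 5 matches, Pfkp 3 and Pdk1 1. This Pkm promoter held none of the 4 motifs, while its other promoter held a hypoxia core.

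Pol II over most members fell at 1 h of LPS and had risen past the starting level at 18 h. Of the 31 members, all of which passed the filter on low values, 24 were lower at 1 h than at 0 h in WT and 5 were higher, at an adjusted p under 0.05 in limma with Benjamini-Hochberg adjustment over all genes tested. Among all genes tested 68.3% were lower and 18.6% higher, and the fall was thus common to most genes. The members' median log2 change was -0.99 against -0.82 for all genes. After 18 h, 23 members were higher than at 0 h and 5 lower in WT, where 33.3% of all genes were higher and 33.3% lower, and the median change was 0.60 against -0.0041. From 1 to 18 h, 27 rose and 3 fell (66.5% and 18.8% of all genes), with a median of 1.64 against 0.81. Changes are on the log2(normalized tags + 10) scale, which understates those of low values.

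In KO macrophages most members also fell at 1 h and rose by 18 h. At 1 h 6 members were higher and 23 lower (20.6% and 62.2% of all genes), at 18 h 22 were higher and 6 lower than at 0 h (28.0% and 42.1%), and from 1 to 18 h 25 rose and 3 fell (55.2% and 24.2%). The median changes of the members were -0.97, 0.62 and 1.51, against -0.62, -0.18 and 0.47 for all genes. Summed over the 31 members, Pol II was 20336 ± 1602 normalized tags in WT at 0 h, 14174 ± 190.3 at 1 h and 37696 ± 541 at 18 h (mean ± SD, n = 3). In KO the sums were 20761 ± 484, 15670.4 ± 112 and 37551 ± 430.5. As a share of Pol II over all genes the members made up 0.372%, 0.228% and 0.585% in WT. When each library was centred on its median gene, 10 members were higher and 16 lower at 1 h in WT, where 37.2% and 38.2% of all genes were, and 9 and 17 in KO (36.3% and 38.3%), and Slc2a1, Slc16a3, Pgd, Aldoa and Pfkm turned from a fall to a rise in WT, by 0.04 to 0.34.

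**Figure D1:**
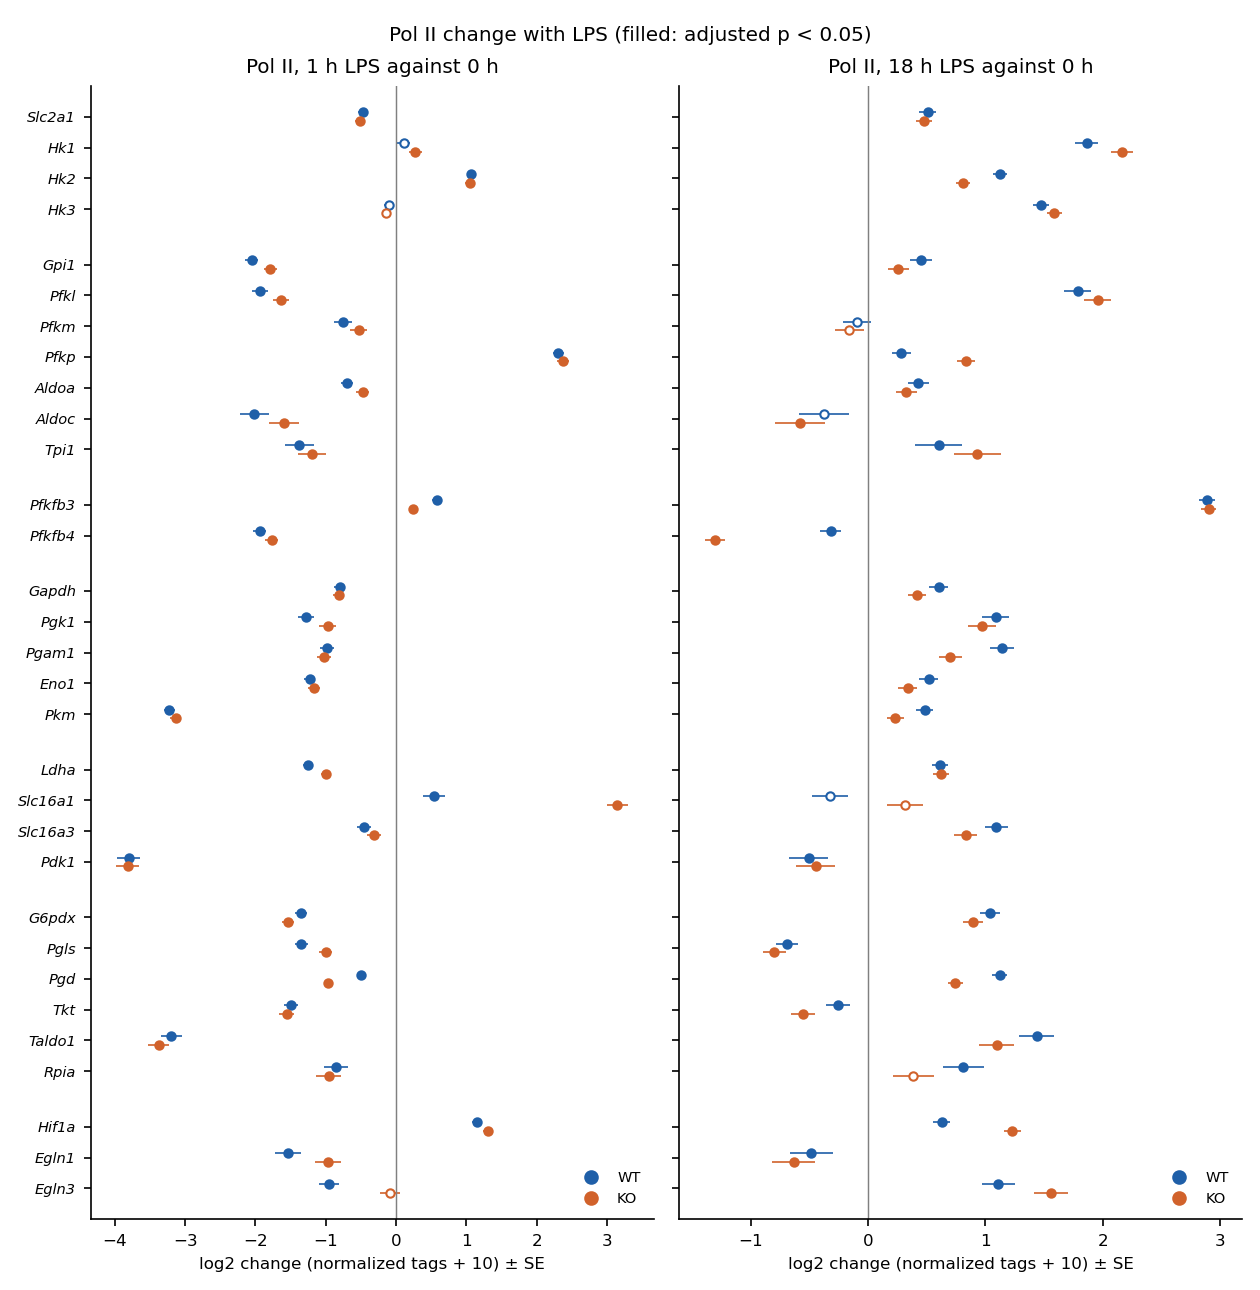
Pol II change of each member at 1 h (left) and 18 h (right) of LPS against 0 h, as log2 of normalized tags + 10 with its standard error, for WT (blue) and KO (orange), grouped by role; filled points have an adjusted p under 0.05. Pdk1, Pkm and Taldo1 lie lowest at 1 h in WT, with -3.80, -3.22 and -3.19, and Pfkfb3 lies highest at 18 h.

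Of the 4 members for glucose uptake and phosphorylation, only Slc2a1 fell at 1 h in WT, and it rose once libraries were centred on their median gene. Hk2, the inducible hexokinase, had Pol II of 699, 775 and 763 in the 3 untreated WT libraries, 1628, 1566 and 1532 after 1 h and 1671, 1589.5 and 1651 after 18 h. It was raised at both times, and the groups with LPS did not overlap with 0 h (log2 change 1.07 ± 0.06 and 1.13 ± 0.06, limma adjusted p = 1.41e-11 and 1.51e-11). Hk3, the hexokinase of myeloid cells, moved from 1749, 2045 and 2009 to 1777, 1773 and 1839 at 1 h and to 5847, 5095 and 5238 at 18 h. Its 1 h change was -0.10 ± 0.07 (limma adjusted p = 0.15), or 0.69 and called higher once centred, and at 18 h it was higher on both scales (log2 1.48 ± 0.07, adjusted p = 1.13e-12). Hk1, the hexokinase found in most tissues, behaved likewise in WT, with 224, 282 and 253 at 0 h and 901, 1031 and 902 at 18 h (log2 1.86 ± 0.09), and in KO it was also called at 1 h, by 0.27 (once centred, 0.90 in WT and 0.85 in KO, both called). Slc2a1, the main glucose transporter, fell from 889, 1064 and 1063 to 723, 725 and 716 and then rose to 1408, 1376 and 1500.4. Within 500 bp of the gene start Hk2 was lower with LPS in WT, by -0.39 at 1 h and -0.32 at 18 h (both called). The Hk3 window overlaps the gene Unc5a and cannot be split from it.

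Upper glycolysis held both directions within a single enzyme, phosphofructokinase. Pfkp (chr13:6579768-6648777, minus strand), the platelet isoform, was at 404, 442 and 475 in untreated WT, 2285, 2192 and 2167 after 1 h and 501, 590.2 and 524 after 18 h, a rise of 5.03 times that was mostly gone at 18 h (log2 2.31 ± 0.08 and 0.28 ± 0.08). Pfkl, the liver isoform, did the reverse, with 163, 192 and 209.8, 40.8, 44.2 and 40.6 and 663, 724 and 630.3 at the same times (log2 -1.93 ± 0.11 at 1 h and 1.79 ± 0.11 at 18 h). The muscle isoform Pfkm was low throughout, between 77.9 and 179.6, and at 18 h its change from 0 h was -0.10 ± 0.12 in WT (limma adjusted p = 0.504). Within 500 bp of the gene start the 1 h change of Pfkp was 0.09 in WT and the 18 h change of Pfkl -0.15, neither of them called. In KO the 18 h change of Pfkl there was -0.43 and called lower (limma adjusted p = 0.0284). The called share of the Pfkp window rose with its value, from 31.3 to 35.7% at 0 h to 91.6 to 92.4% at 1 h. Gpi1, glucose 6-phosphate isomerase, went from 831, 984 and 1017 to 186, 246 and 228 at 1 h and to 1333, 1256 and 1276 at 18 h, and the 3 groups did not overlap. Aldoa and Tpi1, aldolase A and triose phosphate isomerase, fell by 0.70 and 1.37 on the log2 scale at 1 h (Aldoa not once centred) and were 0.43 and 0.60 above 0 h at 18 h. Aldoc, the brain isoform, never passed 48.4 normalized tags. Windows of Pfkl, Pfkm, Pfkp, Aldoa and Tpi1 each overlap a neighbouring gene.

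The pair of enzymes that set the level of fructose 2,6-bisphosphate, an activator of phosphofructokinase, moved apart. Pol II over Pfkfb3 (chr2:11471433-11554077) rose from 552, 648 and 653 at 0 h to 938, 926 and 912 at 1 h and 4687, 4609 and 4573 at 18 h in WT, 7.48 times the starting mean (log2 2.89 ± 0.07, limma adjusted p = 1.09e-16). This was the largest 18 h change among the members in either genotype. Pfkfb4 fell from 848, 930.1 and 1024 to 235, 222 and 250.0 and came back to 769, 741 and 723 (log2 -1.94 ± 0.09 and -0.32 ± 0.09). In a narrower window of 500 bp on either side of the gene start, the change of Pfkfb3 was called lower at 1 h in both genotypes (-1.04 in WT and -0.80 in KO), and its 18 h change in KO was -0.21 on the log2 scale and not called.

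All 5 members of lower glycolysis fell at 1 h and exceeded 0 h at 18 h in both genotypes. At 1 h 68.3% (WT) and 62.2% (KO) of all genes were lower too, and at 18 h 33.3% and 28.0% were higher. Pkm (chr9:59656368-59679375), pyruvate kinase, had Pol II of 2327, 2767 and 2616 in untreated WT, 239, 267 and 294 after 1 h and 3533, 3563 and 3667 after 18 h. The 1 h level was 9.64 times lower than at 0 h, and no library of one time reached the range of another (log2 -3.22 ± 0.07, limma adjusted p = 3.67e-17). At that time 35.7 to 47.8% of its window was called, against 100.0% in each WT library at 0 h. Pgk1, Pgam1, Eno1 and Gapdh, which encode the other enzymes from glyceraldehyde 3-phosphate to phosphoenolpyruvate, fell by 0.80 (Gapdh) to 1.28 (Pgk1) at 1 h. Once libraries were centred on their median gene the 1 h change of Gapdh was -0.01 in WT and not called, and that of the other members stayed lower. At 18 h they were above 0 h by 0.51 (Eno1) to 1.14 (Pgam1) in WT. The Gapdh window overlaps Iffo1. Gapdh also has many near-identical pseudogene copies, and how the aligner placed their reads is not given in the sources used here.

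Members that decide the fate of pyruvate and lactate went separate ways. Pdk1 (chr2:71873224-71903858), the kinase that shuts pyruvate out of the mitochondrial dehydrogenase, lay at 386, 481 and 513 in WT at 0 h and at 36.4, 16.1 and 20.9 at 1 h, the largest fall of any member (log2 -3.80 ± 0.17, limma adjusted p = 3.95e-13). The 1 h values were below the 50.5 normalized tags of the matching input, and at 18 h Pol II was back at 296, 336 and 324. Ldha, lactate dehydrogenase A, fell to 436, 444 and 440.2 from 946, 1171 and 1095 and rose to 1651, 1592 and 1674 at 18 h (log2 0.61 ± 0.07 against 0 h). Slc16a3, the lactate exporter MCT4, was 677, 618 and 617 at 18 h after 271, 320.3 and 291 at 0 h (log2 1.09 ± 0.10). Slc16a1, the other lactate and pyruvate carrier MCT1, was low in WT, with 41.2, 51.0 and 59.4 before LPS, 91.8, 74.1 and 67.1 after 1 h and 40.0, 37.1 and 36.9 after 18 h.

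In the pentose phosphate pathway all 6 members fell at 1 h in both genotypes, as did 68.3% (WT) and 62.2% (KO) of all genes, and they split at 18 h. Once libraries were centred Pgd rose in WT at 1 h (0.30), Rpia was not called in either genotype (-0.06 in WT and -0.38 in KO), and the other 4 stayed lower in both. Taldo1 (chr7:141392199-141402968), transaldolase, went from 416, 469 and 354 in WT at 0 h to 36.7, 24.2 and 50.5 at 1 h and to 1131, 1137 and 1113 at 18 h. From 1 to 18 h this was the largest rise of any member, 4.63 ± 0.15 on the log2 scale (limma adjusted p = 4.28e-15). G6pdx and Pgd, the dehydrogenases of the oxidative branch that make NADPH, reached 1839, 1791 and 1788 and 2075, 2019 and 2159.8 at 18 h, against 804, 818 and 1016 and 857, 1036 and 974 at 0 h. Pgls, the lactonase between them, stayed below its starting level of 525, 639 and 602, with 352, 369.8 and 356 at 18 h (log2 -0.69 ± 0.09). Tkt, transketolase, also ended lower (-0.26 in WT and -0.56 in KO), and Rpia, ribose 5-phosphate isomerase, ended higher in WT (0.81) and had a change of 0.38 in KO (limma adjusted p = 0.0612). Within 500 bp of the annotated gene start Tkt was called higher at 18 h (0.37 in WT). That window ends short of its RefSeq promoter, and the transcript start with the most H3K27ac lies 998 bp away. The windows of G6pdx and Pgls overlap Ikbkg and Fam129c.

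Among the oxygen sensing genes Hif1a rose and Egln1 fell at 1 h. Pol II over Hif1a (chr12:73901375-73947530) was 603, 739 and 646 in untreated WT, 1555, 1429 and 1454 after 1 h and 1029, 1009.7 and 1038 after 18 h, so it rose early and was only partly back at 18 h (log2 1.15 ± 0.07 and 0.63 ± 0.07). Its window overlaps Gm49321. Its inputs were high, between 220.1 and 438 normalized tags in 5 of 6 groups and 5.66 in KO at 18 h. Egln1 fell from 179, 257 and 202 to 66.7, 87.3 and 49.1 and ended at 162, 158 and 126. Within 500 bp of the start no 1 h rise of the members was called (Hk1, Ldha and Hif1a did not pass the filter there), and Egln1 was called higher at 18 h in WT (0.60). Egln3, itself known as a target of HIF-1, was the member with the least Pol II per kb at 0 h and rose from 21.3, 24.9 and 29.3 to 77.2, 65.3 and 55.8 at 18 h (log2 1.11 ± 0.14, limma adjusted p = 2.34e-06).

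**Figure D2:**
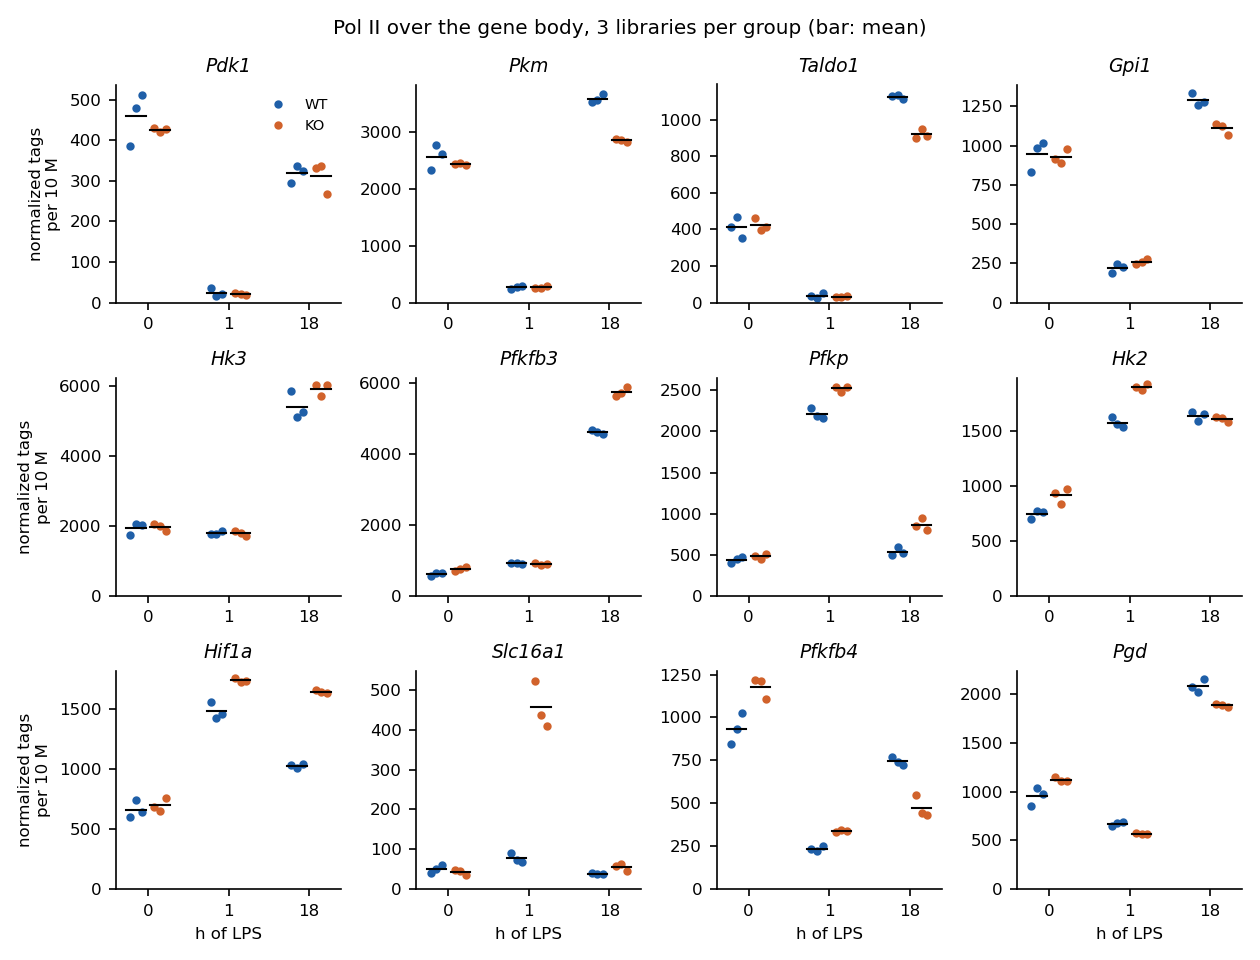
Normalized Pol II tags over 12 members in each library, by h of LPS, for WT (blue) and KO (orange), with a bar at the mean of 3 libraries; each panel has its own axis from 0. Pdk1, Pkm and Taldo1 drop at 1 h and return, Pfkp peaks at 1 h, and the 3 KO libraries of Slc16a1 at 1 h sit at 409 to 523, above all others.

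Of 66 other genes of the same pathways, 5 were higher and 47 lower of 57 tested at 1 h in WT, and 27 and 16 at 18 h against 0 h. The shares among all genes, for these and the single lists, were 18.6% and 68.3% at 1 h and 33.3% and 33.3% at 18 h. Among the other glycolysis isoforms and transporters, 2 were higher and 12 lower of 15 tested at 1 h in WT, and 5 higher and 7 lower at 18 h against 0 h. Slc2a6, a lysosomal hexose transporter, rose by 3.60 on the log2 scale at 1 h. For the hypoxia pathway the counts were 1 and 12 of 14 at 1 h and 9 and 3 at 18 h, among them Bnip3 and Ero1l, both known hypoxia targets, with 2.47 and 3.00 at 18 h. Pyruvate entry had 5 higher and 0 lower of 10 at 18 h, glycogen and gluconeogenesis 5 and 3 of 11, and the other pentose phosphate genes 3 and 3 of 7. Between genotypes, 21 of the other pathway genes were higher in KO and 5 lower of 48 tested at 1 h, where 38.1% and 7.52% of all genes were, and 2 were higher and 6 lower of 55 at 18 h (7.55% and 13.4%). Slc2a3, a high-affinity glucose transporter, was among those lower at 18 h (-1.01).

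Per kb of window, the order of Pol II levels among the members changed with LPS. At 0 h in WT Gapdh led with 142 normalized tags per kb, followed by Hk3 with 118, Tpi1 with 108 and Pkm with 107. At 18 h Hk3 led with 329 in WT and 359.9 in KO, ahead of Gapdh with 216 and 178. The lowest levels at 0 h in WT were those of Egln3 (0.972), Hk1 (2.26) and Slc16a1 (2.43).

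H3K27ac at the gene starts of most members was lower at 1 h and higher at 18 h in WT, while in KO 15 of 30 were called at 1 h. At 1 h 3 of 29 members tested were higher and 17 lower in WT (25.2% and 29.2% of all genes), and at 18 h 18 of 30 were higher and 4 lower than at 0 h (23.5% and 26.4%). From 1 to 18 h, 22 rose and 3 fell in WT (29.1% and 28.5%). Median changes of the members at 1 and 18 h were -0.36 and 0.47, against -0.054 and -0.035 for all genes. The KO counts were 5 higher and 10 lower of 30 at 1 h (20.4% and 26.5%), 16 and 6 of 29 at 18 h (18.4% and 34.2%), and 16 and 4 of 30 from 1 to 18 h (17.1% and 27.2%). Leaving out 1 library at a time gave 17 to 24 members called from 1 to 18 h in KO, in place of 20. Median changes in KO were -0.03, 0.36 and 0.40, against -0.063, -0.15 and -0.091. With replicate 1 as the only KO library at 1 h, 3 were higher and 12 lower of 29 at 1 h (16.8% and 27.1% of all genes), and without it 9 and 8 of 30 (23.1% and 26.3%). With replicate 1 as the only KO library at 18 h, 14 were higher and 3 lower of 29 at 18 h (21.6% and 26.8%), and without it 14 and 7 (18.1% and 39.7%).

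Both marks fell together at 1 h in WT for 16 of the 29 members tested in both (27.4% of all genes tested in both), and both rose for 2, Hk2 and Pfkp (14.3%). Pfkfb3 was the 1 member called in opposite directions (6.36% of all genes), with H3K27ac going from 275, 284 and 286 to 164, 182 and 175 at 1 h (log2 -0.67 ± 0.10) while Pol II rose. At 18 h 18 of 30 members were higher in both marks in WT (18.5% of all genes tested in both), and Pgls and Egln1 were lower in both (18.8%). Pdk1 had H3K27ac of 366, 361 and 404 before LPS, 101, 85.6 and 105 after 1 h and 398, 378 and 401 after 18 h, and the 1 h group lay well below the others (log2 -1.86 ± 0.22, limma adjusted p = 4.17e-06). Taldo1 went from 376, 407 and 406 to 156, 154 and 141 and then to 1151, 1131 and 1062. Hk3 rose at both times, from 751, 789.7 and 847 to 973, 1072 and 1063 and 2272, 2249 and 2314 (log2 1.51 ± 0.12 at 18 h). Pfkp peaked at 1 h in this mark too, with 437, 556 and 443 after 254, 216 and 221 at 0 h.

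For a few members the annotated gene start is not where the mark lies. Hk1 was listed at 0 in all 18 H3K27ac libraries, yet 39366 bp away, at the annotated transcript start with the most H3K27ac, the mark was 238 to 249.6 in WT at 0 h and 292 to 312 at 1 h. For Hif1a that start lies 6529 bp away, where the 1 h change was 0.35 in WT (limma adjusted p = 0.0118) and the 18 h change of 0.14 was not called. Pfkfb4 had its most H3K27ac 25602 bp into the gene, with 772 to 812 at 0 h and 135 to 181 at 18 h, a log2 change of -2.22 where the gene start showed -0.09. These windows were chosen after the values had been seen.

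Between genotypes most members were not called. In untreated cells Pol II was higher in KO over 4 members and lower over 1 (4.17% and 2.71% of all genes), at 1 h over 8 and 1 (38.1% and 7.52%) and at 18 h over 5 and 6 (7.55% and 13.4%). At 1 h the members' median difference was 0.11 against 0.24 for all genes. Centring each library on its median gene changed the 1 h counts to 2 higher and 8 lower (15.7% and 21.2% of all genes) and the 18 h counts to 6 and 2 (15.2% and 7.77%), and Gpi1, Hif1a and Ldha then changed sign at 1 h. The genotype by LPS interaction, the change in KO minus that in WT, was called for 2 members upward and 2 downward at 1 h (14.2% and 4.22%) and for 2 and 4 at 18 h (4.84% and 9.91%). At 1 h WT and KO stand for libraries labelled so, since Pol II over Nr4a1 was not lower in KO there. Leaving out 1 library at a time gave 5 to 8 members at 18 h in place of 11 (15.4 to 18.2% of all genes in place of 20.9%), and 3 at 0 h in place of 5 without replicate 1 of either genotype (5.50% without that of KO and 6.77% without that of WT, in place of 6.88%). These comparisons share their libraries with those of LPS.

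**Figure D3:**
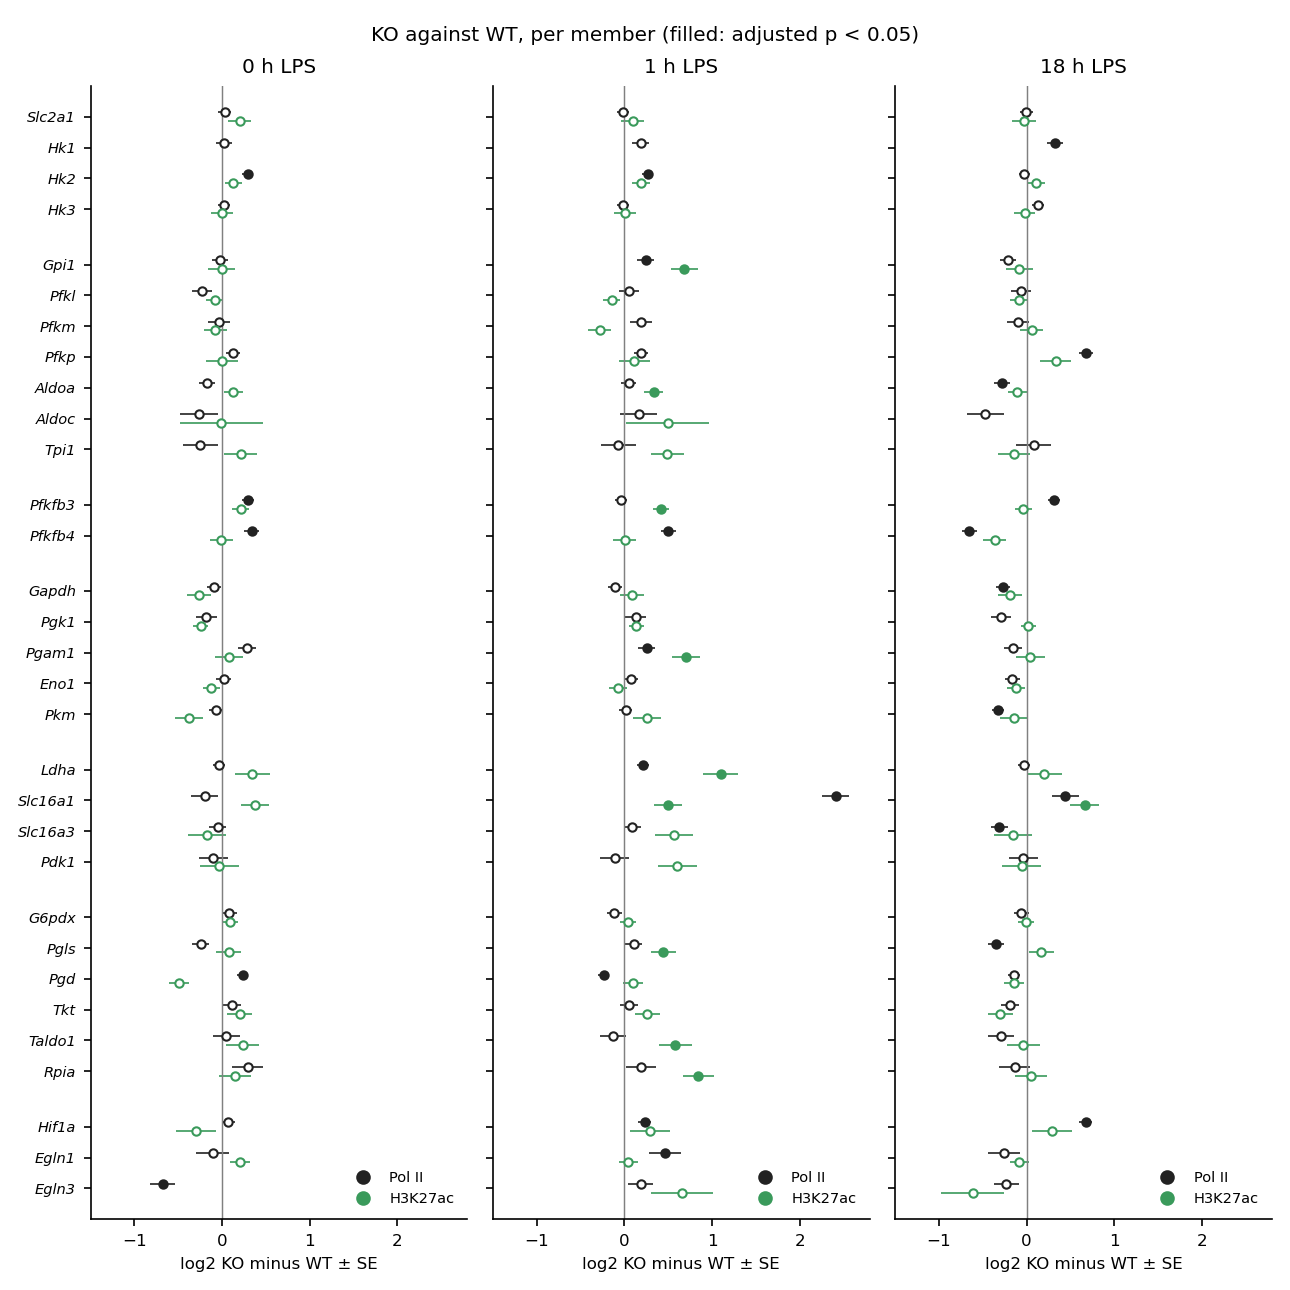
Difference between KO and WT for each member at 0, 1 and 18 h of LPS, as log2 of normalized tags + 10 with its standard error, for Pol II (black) and H3K27ac (green), grouped by role; filled points have an adjusted p under 0.05. The Pol II point of Slc16a1 at 1 h, 2.41, lies far from the rest.

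Slc16a1 (chr3:104638668-104658462, plus strand) carried the one large difference. At 1 h Pol II was 91.8, 74.1 and 67.1 in the WT libraries and 523, 436 and 409 in the KO libraries, 5.87 times higher on average and without overlap (log2 2.41 ± 0.15, limma adjusted p = 1.94e-09). At 0 h the KO libraries had 48.2, 44.8 and 35.3 and at 18 h 58.8, 63.1 and 45.0, close to WT at 0 h and slightly higher at 18 h (log2 0.44 ± 0.15, adjusted p = 0.0483, a call kept under 4 of 13 other settings). LPS thus raised Pol II by 3.14 ± 0.15 in KO and by 0.54 ± 0.15 in WT at 1 h, and the interaction was 2.61 ± 0.22 (adjusted p = 5.54e-07). Called regions covered 76.8 to 97.1% of the window in KO and 13.2 to 19.7% in WT, while within 500 bp of the start the log2 difference was 0.10 (adjusted p = 0.681). Inside called regions the density was alike, 23.2 to 25.9 tags per kb in KO and 22.4 to 24.5 in WT. If the uncalled part of the window held tags at the 1st percentile of region density in each library, 9.50 to 10.8 per kb, WT would reach 258 to 265 and KO 455 to 529. The inputs at 1 h held 26.7 (WT) and 64.6 (KO), and with the input subtracted the difference was 2.73.

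H3K27ac at the start of Slc16a1 was 204, 176 and 196 in WT and 251, 254 and 250.1 in KO without LPS. It was 240.0, 223 and 240.1 in WT and 397, 309 and 307 in KO at 1 h, and 112, 108 and 139.8 and 276, 155 and 171 at 18 h. The KO libraries lay above all WT libraries at each of the 3 times (log2 0.38 ± 0.16, 0.50 ± 0.16 and 0.66 ± 0.16, limma adjusted p = 0.442, 0.0455 and 0.0354). Of all genes tested, 28.9%, 15.9% and 6.37% had KO above WT without overlap at 0, 1 and 18 h. The interaction at 1 h was 0.12 ± 0.23 and that at 18 h 0.29 ± 0.23 (limma adjusted p = 0.782 and 0.634). The 1 h call was kept under only 2 of 15 other settings, and without KO replicate 1 the 18 h difference was 0.42 and no longer called.

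**Figure D4:**
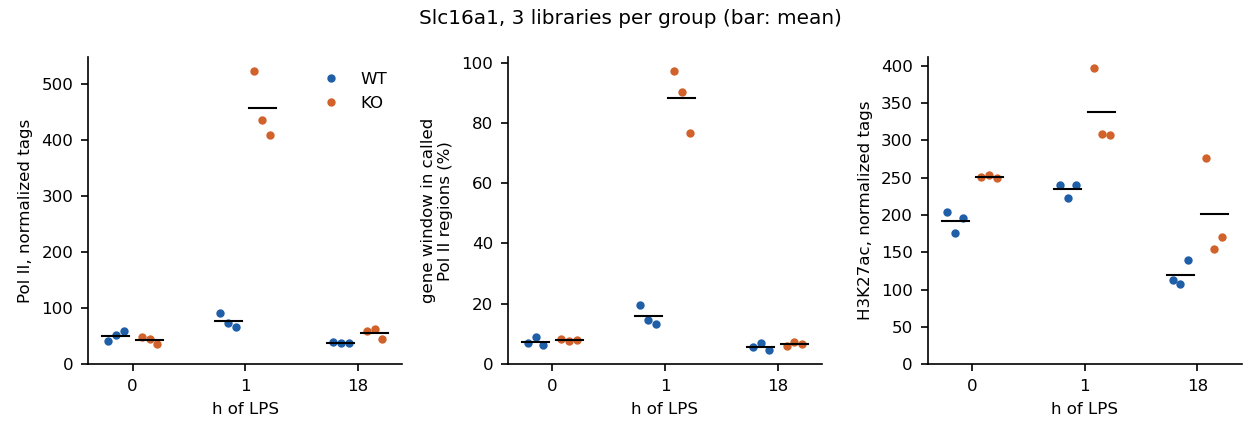
Slc16a1 in each library by h of LPS, for WT (blue) and KO (orange), with a bar at the mean of 3 libraries: normalized Pol II tags over the gene (left), percent of the gene window in called Pol II regions (middle) and normalized H3K27ac tags at the start (right). Both Pol II measures are high in the 3 KO libraries at 1 h, with 76.8 to 97.1% of the window called.

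Pfkp, Pfkfb3 and Pfkfb4 differed between genotypes at 18 h, in different directions, while the phosphofructokinase isoforms Pfkl and Pfkm were not called (-0.06 and -0.10 on the log2 scale). Pfkp had Pol II of 501, 590.2 and 524 in WT and 852, 944 and 802 in KO at 18 h, with no overlap (log2 0.68 ± 0.08, limma adjusted p = 6.87e-06, interaction 0.55 ± 0.11). Pfkfb3 was higher in KO at 0 h (699, 766 and 815 against 552, 648 and 653) and at 18 h (5626, 5722 and 5884 against 4687, 4609 and 4573), with 0.30 and 0.31 on the log2 scale. Pfkfb4 changed sides. It was higher in KO at 0 h (1221, 1211 and 1106 against 848, 930.1 and 1024) and at 1 h (334, 345 and 336 against 235, 222 and 250.0), and lower at 18 h (545, 440.4 and 432 against 769, 741 and 723, log2 -0.65 ± 0.09), and its interaction at 18 h was -0.99 ± 0.13 (limma adjusted p = 4.29e-05). Within 500 bp of the gene start the 18 h differences were -0.18 for Pfkp and 0.50 for Pfkfb4, neither of them called. Called regions of Pfkp covered 61.1 to 76.7% of the window in KO at 18 h and 35.2 to 45.7% in WT.

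Hif1a had more Pol II at 18 h in KO. Its libraries held 1658, 1641 and 1631 in KO, against 1029, 1009.7 and 1038 in WT (log2 0.67 ± 0.07, limma adjusted p = 2.23e-06, interaction 0.60 ± 0.10), a difference called under all 13 other settings. The KO input at 18 h held far fewer called regions than the others and 5.66 normalized tags over Hif1a against 356 in the WT input, so the value with the input subtracted, 1.28, rests on unequal inputs. Egln3 was lower in KO at 0 h, with 14.9, 9.66 and 11.5 against 21.3, 24.9 and 29.3 (log2 -0.68 ± 0.14), both of them low levels. LPS moved it by -0.95 at 1 h in WT cells and by -0.09 in KO cells (limma adjusted p = 7.84e-06 and 0.571, interaction 0.86 ± 0.20). Egln1 was higher in KO at 1 h by 0.46, a call kept under 3 of 13 other settings.

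Smaller differences between genotypes concerned 11 further members. Hk2 was higher in KO at 0 h (936, 838 and 971 against 699, 775 and 763) and at 1 h (1895, 1874 and 1921 against 1628, 1566 and 1532), by 0.29 and 0.27 on the log2 scale (at 1 h 0.02 and not called once centred), and at 18 h the difference was -0.02 (limma adjusted p = 0.813, interaction -0.32). Pgd was higher in KO at 0 h by 0.23 and lower at 1 h by 0.24, with interactions of -0.47 at 1 h and -0.38 at 18 h. Pkm at 18 h ranged over 2886, 2868 and 2835 in KO, against 3533, 3563 and 3667 in WT, lower in KO by 0.32 (limma adjusted p = 0.00385), a call kept under all 13 other settings. Also lower in KO at 18 h were Pgls (-0.35), Slc16a3 (-0.31), Aldoa (-0.28) and Gapdh (-0.27), and Hk1 was higher (0.32). The median of all genes at 18 h was -0.10. Once libraries were centred only 2 members were called lower in KO at 18 h, Pkm among them, so most of these 4 were not. At 1 h Gpi1, Ldha and Pgam1 were higher in KO by 0.24, 0.22 and 0.25 (Gpi1 and Ldha with the opposite sign once centred), all close to the shift of 0.24 seen in the median of all genes. The calls of Aldoa at 18 h and of Gpi1 and Pgam1 at 1 h were kept under 2, 4 and 4 of 13 other settings. The interaction of Pgam1 at 18 h was -0.44 and that of Pfkfb3 at 1 h -0.34.

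For H3K27ac the genotypes differed at members mainly at 1 h when all libraries were used. Which time had more calls depended on the KO libraries included, as given below. At 0 h limma called none of 29 members in either direction (0.465% and 0.296% of all genes were called higher and lower), with 5 at an unadjusted p under 0.05. After 1 h of LPS 9 of 30 were higher in KO and 0 lower (11.0% and 7.25%), with a median difference of 0.28 against 0.051. At 18 h Slc16a1 was the only member called, higher, with 0 lower, of 29 (0.949% and 2.25%). Leaving out 1 library at a time gave 0 to 2 members there. With replicate 1 as the only KO library at 18 h more were called, among members and over all genes. The interaction was called for 0 of 30 in either direction at 1 h (0.0986% and 0.436%) and for 0 of 30 at 18 h (0.149% and 0.455%). At an unadjusted limma p under 0.05 there were 8 and 3. The share of all genes at that unadjusted level is not given here, so the counts of 5, 8 and 3 cannot be set against it.

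The 1 h difference rested on replicates 2 and 3 of KO. Against the mean of the WT libraries the median member of KO replicate 1 was at -0.042 on the log2 scale, and those of replicates 2 and 3 at 0.44 and 0.34. Ldha had 146, 245 and 266 in KO and 101, 101 and 80.8 in WT (log2 1.10 ± 0.20, limma adjusted p = 0.00322), Rpia 163, 289 and 278 and 118, 131 and 131, and Taldo1 137, 304 and 287 and 156, 154 and 141. KO replicate 1 of Taldo1 thus lay below every WT library and the other two above. With replicate 1 as the only KO library at 1 h no member was called (0.330% and 0.773% of all genes were higher and lower), and without it 16 were higher and 1 lower (27.3% and 18.4%), so the calls over all genes rose in number with those of the members. At the transcript start with the most H3K27ac, 4622 bp from the gene start, the Ldha difference was 0.31 (limma adjusted p = 0.0872). Without KO replicate 2, 1 member was called, higher (1.86% and 1.93% of all genes), and without KO replicate 3, 2 (2.27% and 2.20%). Without WT replicate 1 or 2, 5 members were called (8.43% and 7.37% of all genes in either direction). At 1 h replicate 1 is the KO library like those of WT, and whether replicates 2 and 3 carry the right label was not tested.

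**Figure D5:**
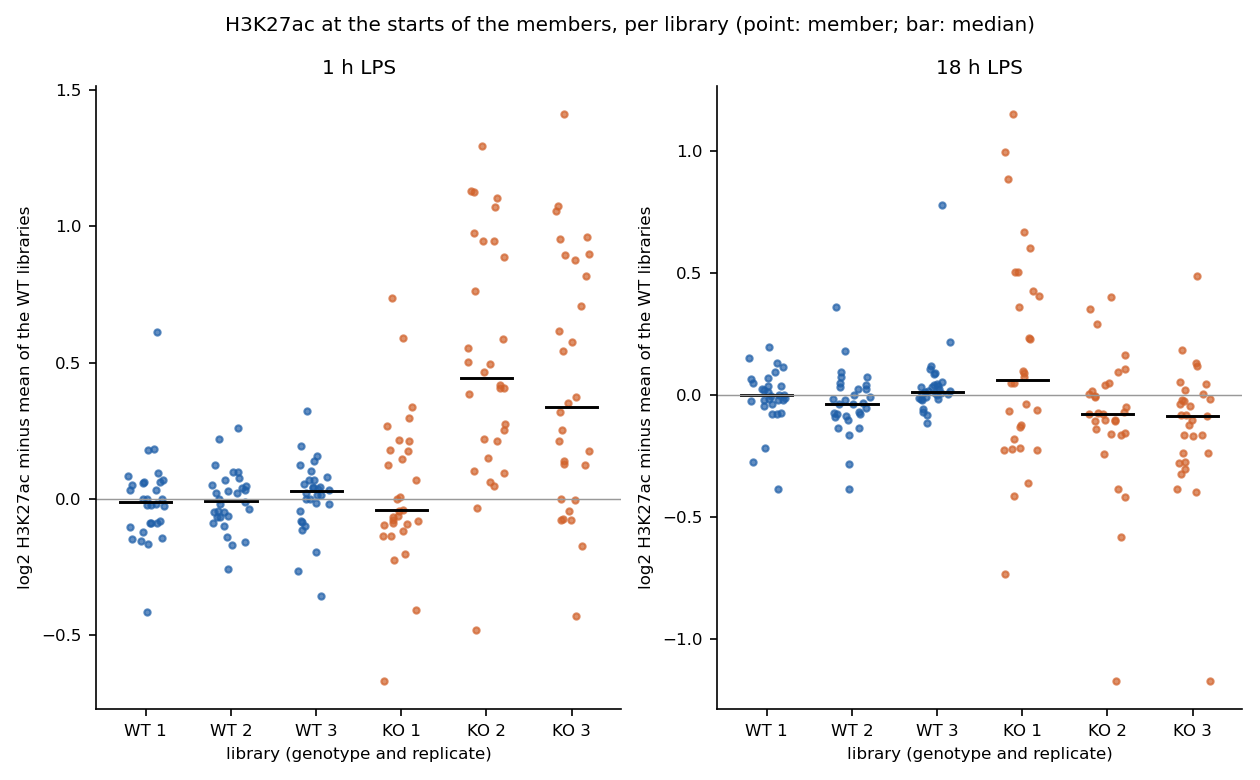
H3K27ac at the starts of 30 members in each WT (blue) and KO (orange) library at 1 h (left) and 18 h (right), as the log2 difference from the mean of the WT libraries of that time, with a bar at the median member. At 1 h the bar of KO replicate 1 sits at -0.042 and those of replicates 2 and 3 at 0.44 and 0.34.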

How the data were processed

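ChIP libraries (36) and inputs (6) were analysed from the region lists of each library. Per the methods and processing notes, reads trimmed by Skewer were placed on mm10 by the authors with HISAT2 2.1.0, and after duplicates were dropped they called broad regions library by library in HOMER, with no input as control. The deposited signal of a region is its tags per 10 M tags. Whole reads could not be recovered, so no count test was run. Per the file headers, windows of 500 bp passed a Poisson p of 0.001 and were stitched within 1000 bp; the threshold moves with depth, so deeper libraries can show weaker regions.

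Gene positions came from GENCODE vM21 on GRCm38 (22028 protein-coding models, 21988 used after models sharing a symbol were reduced by overlap with RefSeq). A region lying partly in a window was shared by overlap. Values were compared as log2(normalized tags + 10) in limma 3.58.1 (R 4.3.3), with 6 group means over the 18 libraries of an antibody and an intensity trend. Tests covered genes above 0 in 2 or more of the 3 libraries in either group, with calls made where the adjusted p (Benjamini-Hochberg) was under 0.05. The scripts were tested on simulated data. Errors after ± are standard errors of log2 changes or, for normalized tags, SD. Alternatives were a pseudocount of 1, no filter, median centring, windows of 500 bp (Pol II) or 1000 bp (H3K27ac) on either side of the start, input subtraction, a common density floor, a replicate block, leaving out libraries and, added after seeing the data, another H3K27ac start. The members and lists were chosen with earlier results of these data known. All 31 members could be named, and in each comparison the called member with the largest change in each direction was followed through the alternatives. For Pol II the antibody's catalogue number in the labels is not that of the article. Tables were made in Python 3.11.15 (pandas 2.3.3, numpy 2.4.6), and plots with matplotlib 3.10.9.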

Additional observations from a re-analysis of the deposited data

Results flagged for a closer look

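The genotype by LPS interaction, a test of whether the LPS change differs between KO and WT, picked out 10 results among the members, all for Pol II. They were 4 of 31 members at 1 h, where 18.4% of all genes were called, and 6 of 31 at 18 h, where 14.8% were. At 1 h the change in KO exceeded that in WT for Slc16a1 (2.61 ± 0.22 on the log2 scale, limma adjusted p = 5.54e-07) and Egln3 (0.86), and fell short of it for Pfkfb3 (-0.34) and Pgd (-0.47). At 18 h it exceeded that in WT for Pfkp (0.55) and Hif1a (0.60), and fell short of it for Pfkfb4 (-0.99), Pgam1 (-0.44), Pgd (-0.38) and Hk2 (-0.32). Of these calls, that of Pgd at 1 h was kept under all 19 other settings, and that of Pgam1 under 5. In a window of 500 bp on either side of the gene start only Pgd at 1 h was called.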

How the results depend on the processing

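Leaving out 1 library at a time kept the number of members called for Pol II between 25 and 30 in the 6 comparisons of times, and for H3K27ac between 12 and 26, against 28 to 30 and 15 to 25 with all libraries. With all libraries, the more common direction there held 33.3 to 68.3% of all genes for Pol II and 26.4 to 34.2% for H3K27ac. Between genotypes the Pol II counts without 1 library were 3 to 5 at 0 h (5 with all), 6 to 9 at 1 h (9), 5 to 8 at 18 h (11), and 4 to 7 (4) and 5 to 6 (6) for the interaction at 1 and 18 h. The H3K27ac counts were 1 to 17 at 1 h (9), 0 to 2 at 18 h (1) and 0 to 12 for the interaction at 1 h (0). Of all genes, 38.1% and 7.52% were called higher and lower in KO for Pol II at 1 h with all libraries. For H3K27ac at 18 h those shares were 0.949% and 2.25%. The Pol II count fell to 3 at 0 h without replicate 1 of WT or KO, and at 18 h to 5 without KO replicate 1, 6 without WT replicate 1 or 2 and 7 without KO replicate 2 or WT replicate 3. The interaction count at 1 h rose to 7 without WT replicate 1 at 0 h (24.8% of all genes in place of 18.4%). For H3K27ac, 17 came without KO replicate 1 at 1 h (12 for the interaction, with 45.8% and 29.9% of all genes), 1 and 2 without KO replicate 2 or 3, and 5 without WT replicate 1 or 2; at 18 h, 2 came without KO replicate 2 and 0 without WT replicate 1 or 2. With KO 1 h as replicate 1 alone 0 members were called at 1 h (1.10% of all genes), and with KO 18 h as replicate 1 alone 6 were at 18 h (34.1%) and 5 for the interaction (22.0%), the lone sample being assumed to vary like the other groups.

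Counting Pol II only within 500 bp of the gene start left 19 members called in WT and 17 in KO of 28 at 1 h, all lower (49.0% and 41.0% of all genes), and 0, 4 and 3 between genotypes at 0, 1 and 18 h (2.69%, 23.4% and 4.80% of all genes), with 1 and 0 for the interactions (3.60% and 2.34%). Among the members followed through the alternatives, it reversed the sign of Pfkfb3 at 18 h in KO (-0.21) and Slc16a1 from 1 to 18 h in KO (0.20). Between genotypes at 18 h it reversed Pfkp (-0.18) and Pfkfb4 (0.50, interaction 0.14). Other members changed sign too, such as Pfkl at 18 h in KO (-0.43). Median centring gave 8 interaction calls at 1 h for Pol II (2 higher, 6 lower; 6.70% and 13.1% of all genes), 6 higher and 2 lower for the interaction at 18 h (9.80% and 5.67%), 23 higher and 5 lower from 1 to 18 h in each genotype (36.1% and 40.9% in WT, 37.2% and 39.4% in KO), and 1 H3K27ac call at 0 h, as did the narrower window and input subtraction. For H3K27ac between genotypes the narrower window gave 5 calls at 1 h and 0 at 18 h (12.0% and 2.60% of all genes), and no filter 5 and 0 (4.63% and 1.21%). The causes were not tested. Replicate numbers did not pair the samples: deviations of same-numbered libraries correlated at -0.072 to 0.108 for Pol II and -0.43 to 0.079 for H3K27ac. With the replicate block the Pol II counts between genotypes were 4, 8 and 10 at 0, 1 and 18 h (6.39%, 44.8% and 20.3% of all genes), and no count left the range of 1.5 times. The H3K27ac window at the transcript start with the most signal, chosen after seeing the data, moved no count by over 1.5 times.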
